A study of Mus musculus with 8 samples.

Results

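The 10 genes described here were the 3 NR4A receptors (Nr4a1, Nr4a2 and Nr4a3) and 7 further immediate early genes (Fos, Fosb, Jun, Junb, Egr1, Egr2 and Atf3), of 57010 genes in the deposited count matrix. They were chosen by name, from earlier values of these data: Nr4a3 had been lower with entospletinib than with vehicle in macrophages on all 3 days, so the values of that contrast are given as a description with no test. Single kidney cells of C57BL/6 mice were profiled after unilateral IRI (ischemia-reperfusion injury, a temporary arrest of blood flow to a kidney). The conditions were an uninjured control (CTRL), injured kidneys of mice that received vehicle, collected at day 1, 7 or 14 (IRI_D1, IRI_D7 and IRI_D14), and injured kidneys of mice given entospletinib, an inhibitor of spleen tyrosine kinase (SYK), at the same times (E_IRI_D1, E_IRI_D7 and E_IRI_D14). Each of the 7 conditions was 1 pool of cells from 3 mice, and live cells had been enriched for leukocytes by light scatter before fixation. No condition was replicated, so the spread between mice was not measured and the 3 days were the only repeats of the treatment.

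After the limits on genes, counts, mitochondrial and ribosomal content, 79389 of 120281 barcodes remained, 5806 to 20571 per condition, with a median of 2072 to 2930 counts per cell in 6 conditions and of 960.0 in E_IRI_D14. A marker gate placed 59184 cells in 1 class (74.5%), and 28.0% of the cells of E_IRI_D14 reached no class against 8.54% to 16.8% in the other conditions. Of 105340 combinations of well barcodes, 13712 occurred in more than 1 of the 8 sublibraries into which the cells of all conditions had been divided. A class is a range of marker scores, not a proven cell type. The macrophage-gated class held 19238 cells, 1805 of them (9.38%) near its cut, and had among its markers the complement genes C1qa, C1qb and C1qc and Adgre1 (F4/80), with 1426 to 5866 cells per condition. Levels are given as CPM (summed counts of a gene scaled by all counts of the class in its pool), with an exact Poisson 95% interval that covers counting error only, or with the SD over the 8 sublibraries, which is technical. CPM were not corrected for gene length, so levels were compared between samples and not between genes.

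Immediate early genes are transcribed within minutes of a stimulus without new protein synthesis. The NR4A proteins are orphan nuclear receptors that act without a known natural ligand and are controlled mainly through their amount, and in myeloid cells they are known for restraining inflammatory transcription. FOS and JUN family proteins pair as the AP-1 transcription factor, ATF3 is a stress-induced factor related to them, and EGR proteins are zinc finger factors. SYK relays signals of immunoreceptors and integrins to calcium and MAP kinase pathways, whose kinases act on the factors CREB, SRF and MEF2 that are known to switch these genes on. Enzymatic dissociation of tissue at body temperature, as used in this study, is also known to induce immediate early and heat shock genes.

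The promoters of the NR4A genes are shown because all 3 hold repeated copies of a short motif, the core of the cAMP response element to which CREB binds (TGACG, or CGTCA on the other strand), and the promoter of Fos is shown for comparison. The windows were the 250 bases before a RefSeq start (GRCm38.p6), printed 5′ to 3′ on the strand of the gene, without bases that lie in a GENCODE exon, and capitals mark the core. The sequences are chr15:101266596-101266845 (plus strand) for Nr4a1, chr2:57124004-57124253 (minus strand) for Nr4a2, chr4:48045055-48045152 (plus strand) for Nr4a3 and chr12:85473640-85473889 (plus strand) for Fos.
Nr4a1: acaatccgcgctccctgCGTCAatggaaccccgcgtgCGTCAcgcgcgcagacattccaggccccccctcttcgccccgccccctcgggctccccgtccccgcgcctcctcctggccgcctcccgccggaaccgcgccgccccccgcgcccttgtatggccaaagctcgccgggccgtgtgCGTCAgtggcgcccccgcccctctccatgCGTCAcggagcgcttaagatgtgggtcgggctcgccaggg
Nr4a2: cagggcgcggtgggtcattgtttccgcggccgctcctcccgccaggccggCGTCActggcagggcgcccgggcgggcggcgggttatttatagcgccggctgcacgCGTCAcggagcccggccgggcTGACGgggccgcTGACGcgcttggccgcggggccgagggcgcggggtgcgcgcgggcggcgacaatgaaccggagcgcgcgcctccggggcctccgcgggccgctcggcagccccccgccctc
Nr4a3: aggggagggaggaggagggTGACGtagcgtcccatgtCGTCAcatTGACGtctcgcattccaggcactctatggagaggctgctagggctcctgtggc
Fos: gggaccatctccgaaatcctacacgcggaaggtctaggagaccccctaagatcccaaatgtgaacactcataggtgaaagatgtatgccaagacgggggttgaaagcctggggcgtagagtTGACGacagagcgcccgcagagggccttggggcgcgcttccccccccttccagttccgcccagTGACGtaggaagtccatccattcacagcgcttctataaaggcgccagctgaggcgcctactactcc

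The core was found 4 times in the window of each of Nr4a1, Nr4a2 and Nr4a3. The Nr4a1 window lies within the GENCODE span of the gene but outside its exons, and the Nr4a2 window lies directly before its gene. In Nr4a3, 3 of them fall in the printed 98 bases and the fourth, 147 bases before the start, lies in exon sequence that is not printed. At least 1 core was present in 17.8% of 32851 promoter windows of the same length, and 4 or more in 0.137%. Fos held 2, Fosb, Junb and Atf3 held 1 each, Jun held none, and 3 of the 5 windows of Egr2 held 2. No member window held the full cAMP response element TGACGTCA (overlapping cores on opposite strands, in 1.55% of windows), the AP-1 element TGANTCA (6.75%), the NR4A element AAAGGTCA (1.34%) or the EGR element GCGTGGGCG (0.536%), searched on both strands. The CArG box, the element of SRF, was present in 1.47% of windows and among the members in Egr2 alone. Egr1 had no entry in the promoter table. These matches describe the letters of the windows, not binding, and no binding was measured.

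In macrophage-gated cells the 3 NR4A genes were higher after injury with vehicle than in control and lower with entospletinib than with vehicle on each day (the plot of member levels in macrophages). For Nr4a1, Nr4a2, Nr4a3 and Egr1 the 3 vehicle pools and the 3 entospletinib pools did not overlap, and for the other 6 members they did. In CPM, all 3 entospletinib pools lay below all 3 vehicle pools for 2.12% of the 8115 genes with a mean of 10 CPM or more. Relative to the median of all genes, all 10 members were lower with entospletinib at all 3 days, where 20.2% of these genes were, and 4 (Nr4a2, Nr4a3, Fosb and Egr1) were lower by at least 0.5 log2 each day, where 1.59% of genes were. Since the members were picked on this contrast, nothing is read from these shares. The median of all genes differed between entospletinib and vehicle by -0.08, 0.32 and 0.11 log2 on days 1, 7 and 14, and the log2 ratios below are relative to it.

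**Figure D1:**
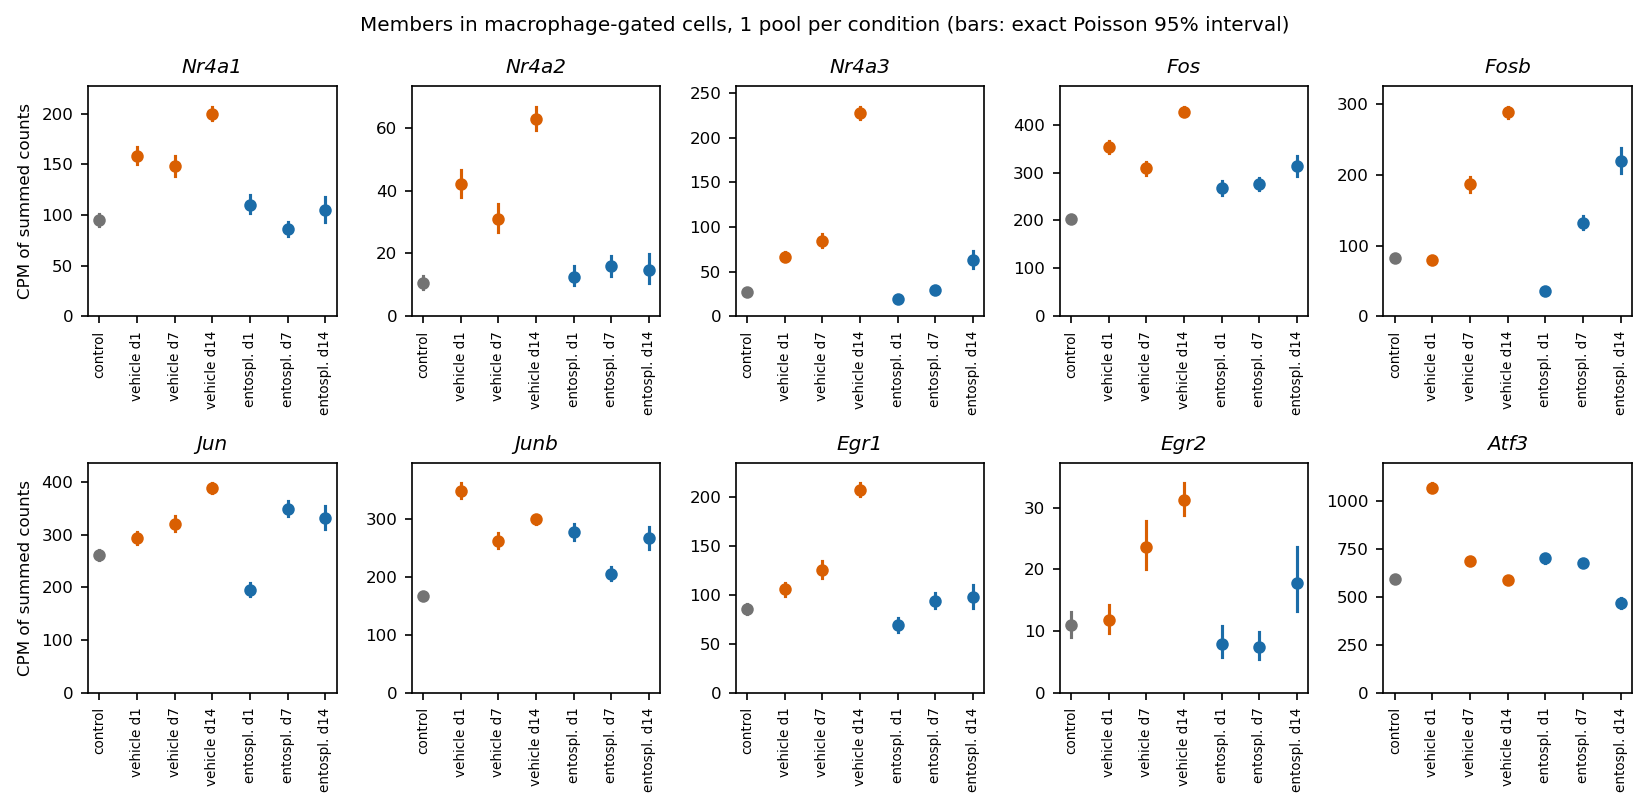
Levels of the 10 members in macrophage-gated cells, in CPM of summed counts on axes that start at 0, for the control pool (grey), 3 vehicle pools (orange) and 3 entospletinib pools (blue), with exact Poisson 95% intervals. The 3 blue points lie below the 3 orange points for Nr4a1, Nr4a2, Nr4a3 and Egr1, as for 2.12% of all genes, and Nr4a3 reaches 228 CPM with vehicle on day 14.

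Nr4a3 (chr4:48045153-48086447, plus strand), the receptor on which the choice of genes rested, stood at 27.6 CPM in control macrophages (312 counts). With vehicle it was at 66.7 CPM (95% interval 61.5 to 72.2), 84.7 CPM (77.6 to 92.2) and 228 CPM (221 to 235) on days 1, 7 and 14. With entospletinib it was at 19.6 CPM (16.1 to 23.8), 29.4 CPM (25.4 to 33.9) and 63.4 CPM (54.3 to 73.5). Its level was highest on day 14 in both treatment groups, and each entospletinib pool lay below the vehicle pool of the same day. The relative log2 ratio of entospletinib to vehicle was -1.67 ± 0.97 on day 1, -1.85 ± 0.99 on day 7 and -1.96 ± 0.46 on day 14 (SD over 8 sublibraries), which is 3.19-, 3.59- and 3.88-fold lower. The ratio was below 0 in 7 of 8 sublibraries on day 1 and in 8 of 8 on days 7 and 14. Sublibraries divide the same pools, so such counts, here and for the other members, are not repeats.

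Nr4a2 (chr2:57106830-57124003, minus strand), known for its part in dopaminergic neurons and as an early gene in macrophages, was at 10.6 CPM in control macrophages. Vehicle pools held 42.3, 31.0 and 62.9 CPM, and entospletinib pools 12.6, 15.8 and 14.6 CPM, on days 1, 7 and 14. The entospletinib pools lay between control and the vehicle pool of the same day. On day 7 the 95% interval with entospletinib (12.9 to 19.2 CPM) did not overlap that of control (8.79 to 12.7 CPM). The relative log2 ratios were -1.65 ± 0.91, -1.28 ± 0.40 and -2.21 ± 0.95, below 0 in 8 of 8 sublibraries each day.

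Nr4a1 (chr15:101254269-101274795, plus strand), the receptor on which nonclassical monocytes depend, was at 95.1 CPM in control macrophages. It was at 159, 148 and 200 CPM in vehicle pools against 110, 86.0 and 105 CPM in entospletinib pools. The relative log2 ratios, -0.44 ± 0.23, -1.11 ± 0.31 and -1.04 ± 0.35, were smaller in size than those of Nr4a3 on each day, and all 8 sublibraries were below 0.

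For the AP-1 genes the vehicle and entospletinib pools overlapped. Fos (chr12:85473890-85477273, plus strand) was at 202 CPM in control, at 352, 308 and 427 CPM in vehicle pools against 267, 276 and 313 CPM in entospletinib pools, with relative log2 ratios of -0.31, -0.48 and -0.56. Fosb (chr7:19302696-19310051, minus strand) was at 82.7 CPM in control, at 79.2, 187 and 289 CPM in vehicle pools against 35.4, 133 and 220 CPM in entospletinib pools. Its relative ratio moved from -1.07 ± 0.60 on day 1 over -0.81 ± 0.35 to -0.50 ± 0.30 on day 14, and its day 1 level with entospletinib was below control.

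Jun (chr4:95049034-95052222, minus strand) was at 261 CPM in control, at 294, 321 and 388 CPM in vehicle pools against 195, 349 and 332 CPM in entospletinib pools. Its relative ratios were -0.50 ± 0.17, -0.20 ± 0.18 and -0.34 ± 0.27, and on day 7 its CPM was higher with entospletinib, so that its direction there depended on the median of all genes. Junb (chr8:84974484-84978718, minus strand) was at 167 CPM in control, at 350, 263 and 300.2 CPM in vehicle pools against 278, 206 and 267 CPM in entospletinib pools, with relative ratios of -0.25 ± 0.27, -0.67 ± 0.32 and -0.28 ± 0.21. Atf3 (chr1:191170296-191218039, minus strand) had its highest level on day 1, with 592 CPM in control, 1072 CPM on day 1 with vehicle, and 686 and 590 CPM on days 7 and 14. With entospletinib it was at 702, 680 and 470.3 CPM, and its relative ratios were -0.53 ± 0.28, -0.34 ± 0.23 and -0.44 ± 0.22.

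Both EGR genes were lower with entospletinib on each day, Egr1 with separate pools. Egr1, a factor induced through SRF, was at 85.4 CPM in control, at 106, 126 and 208 CPM in vehicle pools against 69.0, 94.2 and 98.0 CPM in entospletinib pools, with relative log2 ratios of -0.53 ± 0.65, -0.74 ± 0.42 and -1.20 ± 0.40. Egr2 (chr10:67535475-67542188, plus strand) was at 10.95 CPM in control, at 11.7, 23.7 and 31.3 CPM in vehicle pools against 7.97, 7.39 and 17.9 CPM in entospletinib pools. Its relative ratios were -0.46 ± 0.73, -1.99 ± 0.79 and -0.91 ± 0.64, and on day 1 the SD exceeded the ratio.

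After injury with vehicle, 7 of the 10 members (Nr4a1, Nr4a2, Nr4a3, Fos, Junb, Egr1 and Atf3) were above control relative to the median of all genes at all 3 days, where 26.2% of 8115 genes were. These 3 comparisons share the single control pool. For Nr4a3 the relative log2 ratios to control were 1.09 ± 0.61, 1.87 ± 0.69 and 3.11 ± 0.29, for Nr4a2 1.80 ± 0.54, 1.80 ± 0.96 and 2.63 ± 0.62, and for Nr4a1 0.55 ± 0.26, 0.90 ± 0.22 and 1.14 ± 0.14. Fosb, Jun and Egr2 were below control on day 1 by 0.25, 0.02 and 0.09 log2, each within its SD over sublibraries, and above it on days 7 and 14. In CPM, Jun (294 against 261) and Egr2 (11.7 against 10.95) were above control on day 1, so their direction depended on the median of all genes. So did that of Atf3 on day 14, at 590 CPM against 592 CPM in control. The ratios of Atf3 on day 14 (0.06 ± 0.19) and of Egr1 on day 1 (0.12 ± 0.18) were also within their SD.

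Macrophage-gated cells were divided by whether they leaned to listed markers of injury macrophages or to those of resident macrophages, with 1533 cells (7.97%) near the cut (the plot of NR4A levels by leaning). Nr4a3 was higher in injury-leaning than in resident-leaning cells in each of the 7 pools. In injury-leaning cells it was at 53.8 CPM in control, at 90.5, 123 and 288 CPM in vehicle pools against 21.9, 45.5 and 114 CPM in entospletinib pools. In resident-leaning cells it was at 21.2 CPM in control, at 29.9, 61.3 and 194 CPM in vehicle pools against 18.3, 24.1 and 46.2 CPM in entospletinib pools. With entospletinib on day 1 the levels in injury-leaning and resident-leaning cells were close and rested on 46 and 60 counts. No interval was made for the levels by leaning.

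Nr4a3, Nr4a2 and Nr4a1 were lower in CPM with entospletinib on each day within both kinds of cells. Nr4a2 in resident-leaning cells was at 23.7, 20.3 and 48.9 CPM in vehicle pools against 7.3, 12.1 and 14.3 CPM in entospletinib pools. The share of injury-leaning cells was itself lower with entospletinib, at 37.0%, 22.0% and 19.1% of macrophage-gated cells against 55.6%, 33.1% and 29.4% with vehicle and 19.0% in control.

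**Figure D2:**
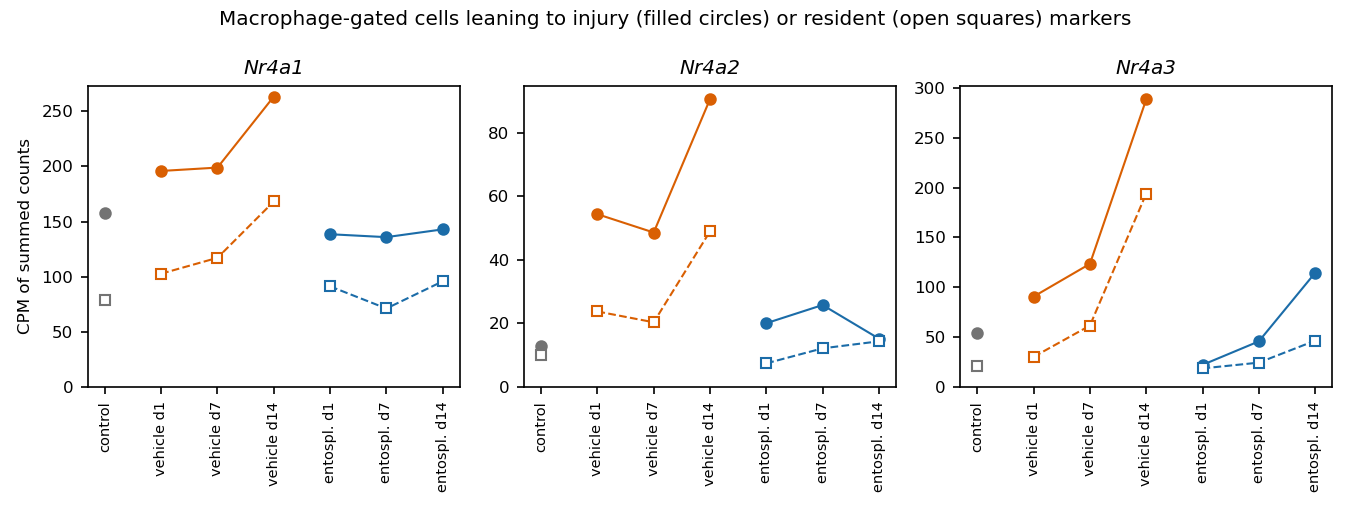
Nr4a1, Nr4a2 and Nr4a3 in macrophage-gated cells that leaned to injury markers (filled circles) or resident markers (open squares), in CPM of summed counts on axes that start at 0, for 1 pool per condition. With vehicle on day 14 Nr4a3 was at 288 CPM in injury-leaning and 194 CPM in resident-leaning cells, against 114 and 46.2 CPM with entospletinib.

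The share of macrophage-gated cells with an Nr4a3 count re-expresses the counts on which the members were chosen and is given as a description. With each cell thinned to 500 counts, 2.60%, 3.09% and 7.94% of macrophage-gated cells held an Nr4a3 count with vehicle on days 1, 7 and 14, against 0.67%, 1.09% and 2.22% with entospletinib and 0.96% in control. Unthinned, the shares were 9.72%, 12.8% and 21.9% with vehicle, 3.33%, 5.59% and 4.37% with entospletinib and 4.79% in control, at median depths of 3981, 3652 and 2700 counts per cell with vehicle, 2289, 2790 and 989.5 with entospletinib and 2825 in control.

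Endothelial-gated cells, in which Nr4a3 was at 3.65 to 73.6 CPM, served as a reference for counts from free RNA, at median depths of 1045 to 3485 counts. Their thinned share was 0.42% on day 1 and 2.50% on day 14 for vehicle, with 0 of 192 cells on day 7, which allows up to 1.56%. For entospletinib it was 0.48%, 0.66% and 0.90% on the 3 days. The macrophage share was above the endothelial share in each treated pool, and on days 1 and 7 with entospletinib it was near this background. Whether endothelial Nr4a3 counts were free RNA or transcripts of these cells was not tested, and the endothelial fit of Nr4a3 below uses them too. In sums over cells, fewer positive cells and less RNA per cell cannot be told apart.

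Like Nr4a3, markers of neutrophils and classical monocytes in macrophage-gated cells were lower with entospletinib than with vehicle on each day. Those of dendritic cells were lower on some days, and those of nonclassical monocytes on none. Over the days, however, the neutrophil and classical monocyte markers did not follow Nr4a3. With vehicle both sums were highest on day 1, when Nr4a3 was lowest of the 3 vehicle pools. The 10 neutrophil markers summed in macrophage-gated cells to 570, 330 and 396 CPM in vehicle pools, 430, 188 and 227 CPM in entospletinib pools and to 174 CPM in control, with the defining marker Ly6g at 0 in control and in all 3 entospletinib pools. The 4 markers of classical monocytes summed to 199, 174 and 146 CPM in vehicle pools, 113, 86.2 and 70.7 CPM in entospletinib pools and 29.9 CPM in control. Fn1, among these 4, is also on the list of injury macrophage markers and was itself below vehicle on each day in macrophage-gated cells. The 6 markers of nonclassical monocytes, the class with the highest Nr4a1, summed to 356, 225 and 229 CPM in vehicle pools, 385, 295 and 305 CPM in entospletinib pools and 325 CPM in control, so that they were higher with entospletinib on each day and, with vehicle, below control on days 7 and 14. The 8 markers of Ccr7 dendritic cells, the class with the highest Nr4a3, summed to 60.0, 85.0 and 166 CPM in vehicle pools against 58.9, 98.8 and 142 CPM in entospletinib pools, and the 5 markers of cDC2 to 519, 335 and 414 CPM and to 491, 455 and 378 CPM. The part of these cells or their RNA in the member levels was not tested.

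The heat shock genes of the list summed in macrophage-gated cells to 5824, 2720 and 3360 CPM in vehicle pools, 4854, 3628 and 3534 CPM in entospletinib pools and 3562 CPM in control. This sum was lower with entospletinib on day 1 and higher on days 7 and 14. Relative to the median of all genes, the median log2 ratios of the list were -0.24, 0.04 and -0.06. Of 11 heat shock genes measured, 3 (Hsph1, Hspa8 and Bag3) were below vehicle at all 3 days, near the 20.2% of all genes, and 2 (Hspa1b and Hspe1) above. The part of tissue dissociation in the member levels was not tested.

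Other genes of the same response were described from lists chosen with earlier results known. Of 27 other immediate early genes, 24 were measured in macrophage-gated cells, 16 were below vehicle at all 3 days (against 20.2% of all genes) and 1 (Tsc22d3) above, with median relative log2 ratios of -0.44, -0.31 and -0.31, against -0.51, -0.78 and -0.74 for the members. Nfil3, a leucine zipper factor, was at 42.3, 33.5 and 47.6 CPM in vehicle pools against 18.4, 13.2 and 15.7 CPM in entospletinib pools. Gadd45b, a stress sensor, had relative ratios of -0.69, -1.86 and -1.53, Ppp1r15a (GADD34), which restores translation after stress, of -0.55, -0.64 and -0.99, and Zfp36 (tristetraprolin), which destabilises cytokine mRNAs, of -0.52, -0.71 and -0.73.

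Of 12 upstream factors, 11 were measured and 2 were below vehicle at all 3 days, near the 20.2% of all genes: Crem (-0.62, -1.01 and -0.68), a relative of CREB that is itself induced, and Mef2d (-0.26, -0.63 and -0.35). None was above at all 3 days. Of 11 genes of MAP kinase feedback, 7 were measured, 2 were below vehicle at all 3 days, near the 20.2% of all genes, and 1 was above. Dusp5, a nuclear ERK phosphatase, was at 42.0, 22.9 and 43.0 CPM in vehicle pools against 18.4, 7.85 and 10.6 CPM in entospletinib pools. Dusp1 was below as well (-0.39, -0.66 and -0.35) and Dusp6 above (0.09, 0.19 and 0.02). Among 7 NAB corepressors and NR4A partners 1, Nab1, was below at all 3 days, by 0.33, 0.16 and 0.57 log2, also near that share.

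Across the 15 classes described, Nr4a3 was highest in Ccr7 dendritic cells, followed by cDC2, neutrophils, T cells, NK cells and cDC1 in order of the mean over 7 pools (the plot of Nr4a3 by class). In Ccr7 dendritic cells, a migratory state of dendritic cells, it was at 1485 CPM in control, at 1369, 2035 and 2942 CPM in vehicle pools against 1423, 1339 and 1067 CPM in entospletinib pools, from 23 to 159 cells per pool. In cDC2 it was at 740 CPM in control, at 962, 813 and 1557 CPM in vehicle pools against 564, 959 and 929 CPM in entospletinib pools. Over the 7 pools, the range of each class overlapped that of its neighbours in this order. Macrophages ranked 11 of 15, and the tubule classes stood at or below 37.4 CPM.

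In neutrophils Nr4a3 was at 310 CPM in control, at 421, 1131 and 1538 CPM in vehicle pools against 159, 748 and 698 CPM in entospletinib pools, where the last 2 rest on 81 and 34 cells. Markers of Ccr7 dendritic cells in neutrophil-gated cells were at 53.1, 114 and 94.2 CPM in vehicle pools and 14.1 CPM in control. With entospletinib they were at 41.4, 44.0 and 43.6 CPM, lower on each day, the last 2 from 6 and 1 counts. Markers of macrophages and cDC2 there had no common direction. The part of these lists in the neutrophil values was not tested. Vehicle on day 14 gave the highest Nr4a3 of the 7 pools in 13 of the 15 classes, all but classical monocytes and the loop of Henle. Nr4a3 was below vehicle relative to the median at all 3 days in 9 of the 15 classes and above it at all 3 days in none. Under alternative settings its ratio reached values above 0 in several of the 9. On day 7 it reached 0.74 in T cells, 0.56 in NK cells, 0.30 in cDC2 and 0.06 in B cells. On day 1 it reached 0.21 in cDC1 and 0.13 in T cells. One of the 9, distal tubule or collecting duct, rests on 1 to 14 counts per treated pool. In cDC2, also among the 9, CPM on day 7 was higher with entospletinib (959 against 813), so that the direction there depended on the median of all genes. Egr1 was below in 9 classes and Fosb in 7. The CPM of Fosb on day 7 was higher with entospletinib in cDC2 (261 against 238) and nonclassical monocytes (57.0 against 52.3). Nr4a2 was below in 7 of the classes where its mean reached 10 CPM, and Jun in macrophages alone. The share of all genes that reach such counts of classes is not given, and the classes share pools, so nothing is read from these counts.

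**Figure D3:**
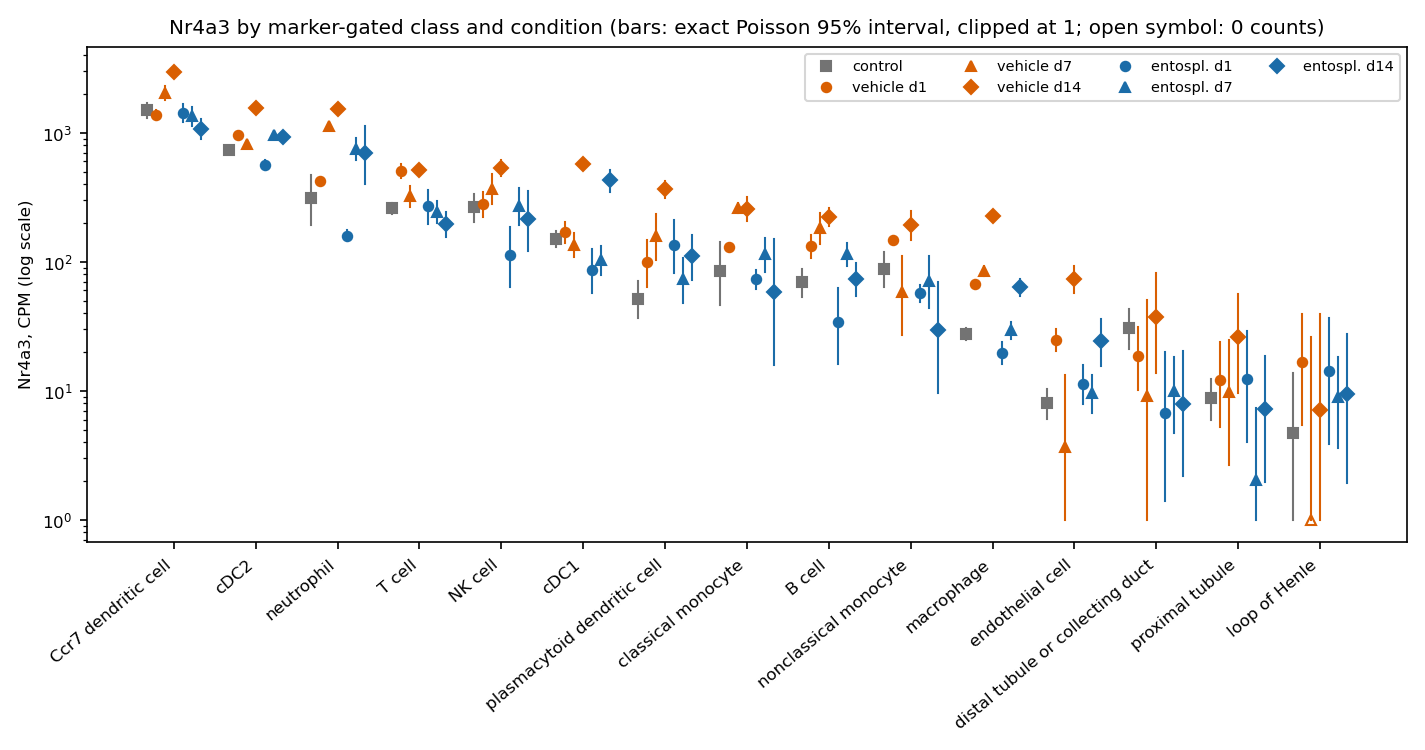
Nr4a3 in 15 marker-gated classes, in CPM on a log axis, with 1 point per condition and exact Poisson 95% intervals. Classes are ordered by mean level, from Ccr7 dendritic cells at 1067 to 2942 CPM down to tubule cells at or below 37.4 CPM, and the vehicle day 14 pool (orange diamonds) is the highest point in 13 of 15 classes.

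The other members had other leading classes. Nr4a1 was highest in nonclassical monocytes in 6 of 7 pools, at 999 CPM in control, 1133, 1313 and 1145 CPM in vehicle pools against 1135, 1030 and 999 CPM in entospletinib pools. The vehicle and entospletinib pools overlapped there. Fos, Junb and Egr1 were highest in neutrophils in 7 of 7 pools, and Egr2 and Atf3 in cDC2 in 6 of 7. For Nr4a2, Fosb and Jun no class was the highest in more than 3 of the 7 pools. In neutrophils Fos was at 927, 683 and 1450 CPM in vehicle pools against 1102, 1268 and 1439 CPM in entospletinib pools, with relative ratios above 0 on days 1 and 7.

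The 3 further myeloid classes of neutrophils and monocytes had too few cells in a pool for a test and are described. In neutrophils 4 of the 10 members (Nr4a2, Nr4a3, Egr1 and Egr2) were below vehicle relative to the median at all 3 days, where 18.0% of genes were. In classical monocytes these were 5 (Nr4a2, Nr4a3, Fosb, Egr1 and Egr2) against 15.7%, and in nonclassical monocytes 2 (Fosb and Egr1) against 15.0%, where Egr2 was under the mean of 10 CPM that these shares require. In neutrophils with entospletinib on day 14, 34 cells held 0 counts of Egr2 and 1 of Nr4a2. A limit of 3 counts is 131 CPM there, above the 83.6 CPM of Egr2 with vehicle. The direction of Egr2 in neutrophils on that day was therefore not settled. Fosb in nonclassical monocytes had a higher CPM with entospletinib on day 7 (57.0 against 52.3), where its direction depended on the median of all genes. Nr4a3 in classical monocytes was at 84.6 CPM in control, at 131, 260.2 and 258 CPM in vehicle pools against 72.9, 114 and 58.7 CPM in entospletinib pools, the last from 4 counts in 42 cells. Egr1 had 0 counts in those 42 cells, which allows up to 44.0 CPM at a limit of 3 counts (upper exact Poisson limit 54.1 CPM), and stood at 89.9 CPM with vehicle on day 14.

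Outside macrophages, the treatment was tested over the 3 days in 7 classes with at least 50 cells in each of the 6 treated pools, with edgeR's quasi-likelihood test, day as a block and Benjamini-Hochberg adjustment over all genes (the plot of fitted fold changes). Entospletinib was below vehicle for 5 of the gene and class pairs and above it for none at an adjusted p under 0.05. Genes called lower made up 0.0844% of those tested in cDC2, 0.528% in cDC1, 0.081% in T cells, 0.0% in NK cells, 0.291% in B cells, 0.00886% in endothelial cells and 0.043% in proximal tubule cells. The members called were Nr4a3 and Nr4a1 of 10 tested in B cells, Nr4a2 of 10 in cDC1, Nr4a3 of 9 in T cells and Egr1 of 7 in proximal tubule cells.

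Nr4a3 in B cells was at 69.1 CPM in control, at 132, 182 and 223 CPM in vehicle pools against 33.9, 115 and 73.4 CPM in entospletinib pools. All 3 entospletinib pools lay below all 3 vehicle pools, as for 5.33% of genes there. The fitted log2 fold change was -1.33 (SE 0.20, adjusted p = 0.000732), and it passed without day 1, day 7 or day 14 in turn, but not with the stricter gate (adjusted p = 0.0819) or DESeq2 (0.298). Nr4a1 in B cells, known there as a gene induced by antigen receptor signalling, was at 276 CPM in control, at 384, 453 and 383 CPM in vehicle pools against 199.9, 312 and 229 CPM in entospletinib pools. Its fold change was -0.74 (SE 0.14, adjusted p = 0.0114), and the call was lost without day 1 (adjusted p = 0.118), with DESeq2 (1), total counts as the scale (0.0543) and the stricter gate (0.118).

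Neutrophil markers in B-cell-gated cells summed to 366, 264 and 247 CPM in vehicle pools against 278, 134 and 142 CPM in entospletinib pools, with Ly6g at 0 in each pool, so that they were also lower with entospletinib on each day. Thbs1, listed as a marker of injury macrophages, was called lower in B cells by edgeR (-1.90, SE 0.27, adjusted p = 0.000533), and the 3 genes of that list tested there had a median fold change of -1.02. Macrophage markers were lower with entospletinib on each day as well, at 195, 206 and 223 CPM in vehicle pools against 163, 170 and 219 CPM in entospletinib pools. Markers of Ccr7 dendritic cells were at 598, 433 and 442 CPM in vehicle pools against 389.7, 498 and 295 CPM in entospletinib pools, lower on days 1 and 14. Markers of cDC2 in the same cells were at 54.9, 20.6 and 107 CPM in vehicle pools against 30.5, 46.7 and 34.4 CPM in entospletinib pools, also lower on days 1 and 14. The part of these in the B cell values was not tested.

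In T cells Nr4a3 was at 259 CPM in control, at 505, 321 and 512 CPM in vehicle pools against 268, 245 and 196 CPM in entospletinib pools, and the pools did not overlap, with entospletinib lower in this way for 4.02% of genes there. The fold change was -0.95 (SE 0.18, adjusted p = 0.0355). This call rested on day 14, since the adjusted p was 0.366 without it, and it was also lost with DESeq2 (0.939), total counts as the scale (0.136) and the stricter gate (0.128). Neutrophil markers in T-cell-gated cells were at 329, 282 and 232 CPM in vehicle pools against 371, 104 and 180 CPM in entospletinib pools, so they were higher with entospletinib on day 1 and lower on days 7 and 14. Markers of macrophages, cDC2 and Ccr7 dendritic cells in these cells had no common direction over the days. Their part in the T cell values was not tested.

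In NK cells Nr4a3 was at 263 CPM in control, 281, 368 and 532 CPM in vehicle pools against 113, 271 and 215 CPM in entospletinib pools, with 15 counts in 2 of the pools. Its fold change was -1.02 (SE 0.24, adjusted p = 0.0594) and that of Nr4a2 -1.01 (SE 0.23, adjusted p = 0.0594). Neither passed, no member was called in NK cells by edgeR or DESeq2, and 280 of 3167 genes had an unadjusted p under 0.05. Without day 7 both passed the threshold. Markers of Ccr7 dendritic cells in NK-gated cells were at 90.3, 32.3 and 50.9 CPM in vehicle pools against 37.6, 14.7 and 14.3 CPM in entospletinib pools, lower on each day, from 1 to 26 counts. Neutrophil markers were at 542, 136 and 105 CPM against 941, 109.9 and 115 CPM, and those of macrophages and cDC2 had no common direction. The part of these in the NK cell values was not tested.

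Among dendritic cells, Nr4a2 in cDC1 was at 126 CPM in control, at 229, 141 and 399 CPM in vehicle pools against 54.6, 72.9 and 295 CPM in entospletinib pools. The groups overlapped, and each entospletinib pool was below the vehicle pool of its day. The fold change was -1.06 (SE 0.19, adjusted p = 0.00478), which passed with DESeq2 and lost the call without day 1 (adjusted p = 0.0684) or day 7 (0.223). Nr4a3 in cDC1 had a fold change of -0.62 (SE 0.16, adjusted p = 0.0635). In cDC2 no member passed by edgeR or DESeq2, with 2 of 10, Nr4a2 (-0.57, SE 0.17) and Nr4a3 (-0.51, SE 0.18), at an unadjusted p under 0.05 and adjusted p of 0.192 and 0.354. Over all genes in cDC2, 778 of 8291 had an unadjusted p under 0.05.

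Neutrophil markers in cDC1-gated cells were at 446, 299 and 264 CPM in vehicle pools against 299, 192 and 192 CPM in entospletinib pools. Macrophage markers there were higher with entospletinib on each day, at 189.6, 242 and 238 CPM against 185, 161 and 204 CPM, and those of cDC2 and Ccr7 dendritic cells had no common direction. The part of these lists in the cDC1 values was not tested. Of the other lists, edgeR called Csrnp1 (-2.23, adjusted p = 0.000958), Nfil3 (-2.82, adjusted p = 0.00818) and the phosphatase Dusp1 (-1.10, adjusted p = 0.0298) lower in cDC1. The heat shock gene Hspa1b was called higher in cDC2 (0.88, adjusted p = 0.0167).

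Egr1 (chr18:34859823-34864984, plus strand) in proximal tubule cells was at 21.0 CPM in control, at 78.0, 31.7 and 130.3 CPM in vehicle pools against 12.5, 10.3 and 29.0 CPM in entospletinib pools, from 5 to 51 counts per treated pool. The pools did not overlap, with entospletinib lower in this way for 3.91% of genes there, and the fold change was -2.08 (SE 0.34, adjusted p = 0.0479). The call was lost without day 14, whose vehicle pool held 73 proximal tubule cells (adjusted p = 0.821), with DESeq2 (0.544) and with the stricter gate (0.507). The fold change did not shrink in these fits, at -2.154, -2.105 and -2.088. Without day 14, 0 of 6783 genes were called in this class. All 7 members tested there were fitted below 0, where 50.7% of 6974 genes were, among them Fos (-1.27, SE 0.28, adjusted p = 0.154) and Fosb (-1.33, SE 0.31, adjusted p = 0.208), and of 13 other immediate early genes 12 were, with Klf4 called (-2.20, adjusted p = 0.0479). Heat shock genes summed there to 4091, 2471 and 3810 CPM in vehicle pools against 2376, 3306 and 2483 CPM in entospletinib pools. In the same fit 10 of 11 heat shock genes were below 0 (median -0.24), with 0 called. Neutrophil markers summed there to 301, 132 and 239 CPM in vehicle pools against 267, 83.3 and 141 CPM in entospletinib pools, lower on each day, and the part of either list in the tubule values was not tested.

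In endothelial cells no member passed by edgeR or DESeq2, and 2 of 9 tested had an unadjusted p under 0.05, as did 998 of 11289 genes. Nr4a3 had a fold change of -1.01 (SE 0.33, adjusted p = 0.406) and Nr4a1 one of 0.63 (SE 0.21, adjusted p = 0.426), in the other direction, which passed without day 1 (0.83, adjusted p = 0.0297). Nr4a1 was at 38.5, 40.1 and 81.2 CPM in vehicle pools against 47.0, 44.7 and 201 CPM in entospletinib pools there, so that its largest difference was on day 14. Thbs1 was called lower there by edgeR (-1.15, SE 0.15, adjusted p = 0.0306).

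**Figure D4:**
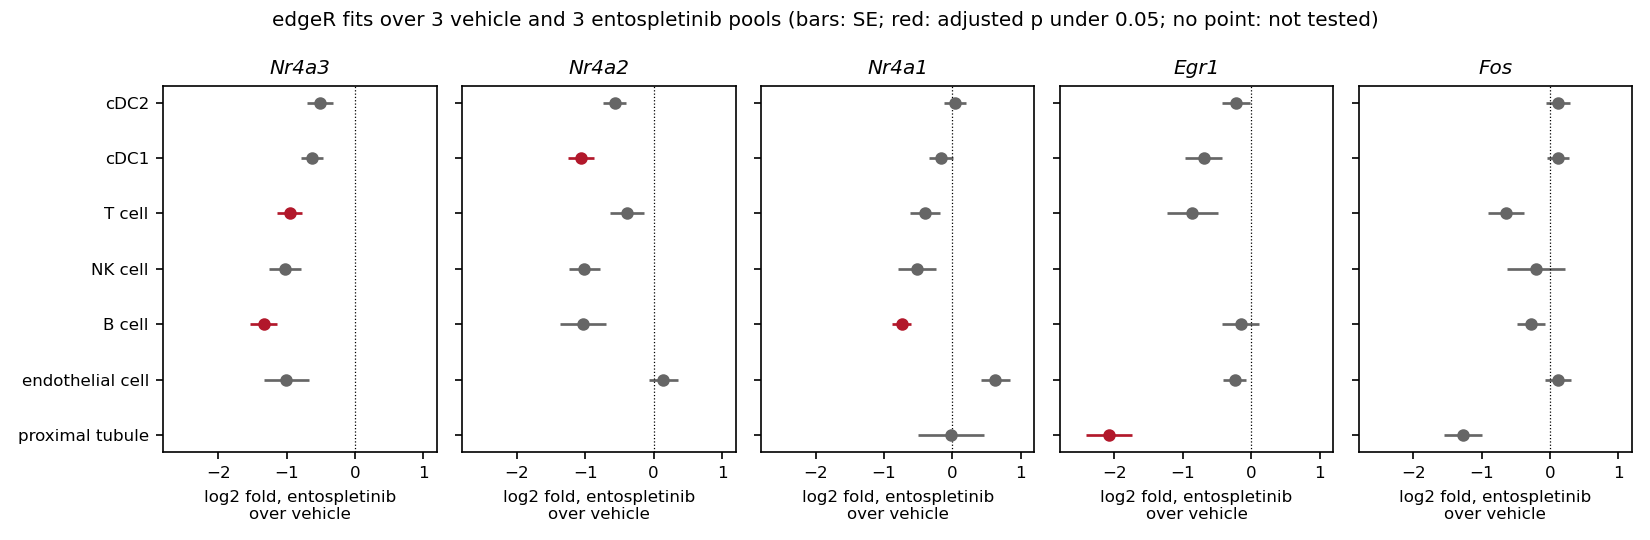
Fitted log2 fold changes of entospletinib over vehicle for Nr4a3, Nr4a2, Nr4a1, Egr1 and Fos in 7 classes outside macrophages, from edgeR over 3 vehicle and 3 entospletinib pools, with bars for the SE, red for an adjusted p under 0.05 and no point where a gene was not tested. Nr4a3 lies below 0 in 6 of 6 classes, from -1.33 in B cells to -0.51 in cDC2.

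Over the tested classes Nr4a3 was fitted below 0 in 6 of 6, Egr1 in 6 of 6 and Nr4a2 in 5 of 6, whereas Jun was below 0 in 2 of 7 and Fos in 4 of 7. In each class 48.6% to 50.7% of all genes were fitted below 0. The median fold change of the members was -0.86 in proximal tubule cells (7 tested), -0.40 in T cells (9), -0.30 in B cells (10), -0.26 in cDC1 (10), -0.21 in NK cells (7), -0.15 in cDC2 (10) and 0.12 in endothelial cells (9), against medians over all genes between -0.01 and 0.01. Egr2 was tested in 3 classes and Nr4a3 not in proximal tubule cells, where its counts were too low. The classes share pools, so they are not independent repeats.

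The genes whose log2 levels were most like those of Nr4a3 over 93 values (16 classes and their pools) were Nfkb1 (Pearson's r = 0.86), Jak2 (0.86), Tnfaip3 (0.86), Gpr132 (0.85) and Plxnc1 (0.84), of 6835 genes ranked. Among the members, Nr4a2 had an r of 0.78, Nr4a1 of 0.71, Junb of 0.66, Egr2 of 0.55 and Jun of -0.02. These are descriptions, since the values share pools and libraries and differ mostly between classes. In macrophages Nfkb1 was at 423 CPM in control, 560, 444 and 596 CPM in vehicle pools against 449, 428 and 387 CPM in entospletinib pools.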

How the data were processed

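Single-cell RNA sequencing of kidney cells was carried out by the authors with a combinatorial barcoding kit (Parse Evercode WT), and their Parse pipeline aligned reads to mm10, collapsed them to transcripts and assigned cells to conditions by well; the annotation release was not given in the sources used here. The authors deposited a matrix of raw counts that had not been normalized (collapsed transcripts of each gene in each cell), whose sum equalled the deposited transcript count of the cell for all 120281 barcodes. Every deposited sample held all conditions, so the cell table gave the condition of each cell, and sublibraries were not matched to single samples.

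Cells with more than 300 genes, fewer than 20000 counts, under 25% mitochondrial and under 1.5% ribosomal protein gene counts were kept, following the study's limits. Fewer cells remained here than in the paper's map of cells, and the source of this difference was not tested. No doublet caller was run; cells with markers of more than 1 class (9454) were left out as mixed, and 10751 reached no class. Cells were gated by summed markers, keeping a marker whose level in clear cells of its class was at least 2 times that in every other class and leaving out Thbs1. This scoring was set after the data had been seen. Placing gated cells by the likelihood of their whole profile gave the same class for 97.1%. Classes with at least 10 cells in each of the 7 pools are described, which left out basophils or mast cells and stroma.

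Counts were summed per class and pool and given as CPM. Ratios between pools were taken relative to the median of all genes with a mean of 10 CPM or more, with the SD over 8 sublibraries, where a pseudocount of 0.5 was used. Outside macrophages edgeR 4.0.16 (R 4.3.3) was run with TMM scaling, filterByExpr, a day block and the quasi-likelihood test over 6 pools, with DESeq2 1.42.0 as an alternative; the SE is the log2 fold change over the square root of F. P-values there measure the spread over 3 days of pools and not between mice. Alternatives changed the gene limit (500), the ribosomal limit, the gate, the scale, the filter, the day block, the depth (500 counts per cell), and left out each day or sublibrary. Promoter windows came from RefSeq (GRCm38.p6), with 9 of the 10 members in the table, and gene positions from GENCODE vM21 (GRCm38).

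The members and the gene lists were chosen with earlier results of these data known. Named genes are the 10 members, genes of the other lists that passed the test or, without a test, the 4 with the largest ratio in one direction at all 3 days, and the 5 genes most like Nr4a3 with a mean of at least 20 CPM. Nab1 and Tsc22d3 were named because their counts were 1. The lists of injury and resident macrophage markers served to divide macrophages, with Thbs1 left out of this division. Of 7 injury markers 4 (among them Fn1, Thbs1 and Gpnmb) were below vehicle at all 3 days in macrophage-gated cells and 0 above, and of 7 resident markers 0 were below and 4 above.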

Additional observations from a re-analysis of the deposited data

Results flagged for a closer look

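Among macrophages and the 7 tested classes, which had at least 50 cells in each treated pool, in 3 genes the direction of the entospletinib to vehicle ratio was opposite between classes on all 3 days, relative to the median of all genes, and these differences between classes were not tested. Nr4a1 was above vehicle at all 3 days in endothelial cells (median of the days 0.37 log2) and below it at all 3 days in macrophages, NK cells and B cells, although the endothelial ratio on day 7 was 0.02 ± 1.26 (SD over 8 sublibraries). Jun was above vehicle at all 3 days in B cells (median 0.23 log2) and below it in macrophages. Junb was above vehicle at all 3 days in endothelial cells (median 0.23 log2) and in distal tubule or collecting duct cells, a smaller class (relative ratios 1.32, 0.15 and 0.60), and below it in macrophages, cDC2, B cells and proximal tubule cells. For Jun in B cells and Junb in endothelial and distal tubule cells each day's ratio was smaller than its SD over the sublibraries. Among the smaller classes, Egr2 was above vehicle relative to the median at all 3 days in plasmacytoid dendritic cells, from 0 to 1 counts per pool. Egr2 was below vehicle in macrophages, both monocyte classes and neutrophils. On day 14 with entospletinib, however, nonclassical monocytes and neutrophils held 0 counts of it. A limit of 3 counts is 17.8 and 131 CPM in these pools, above the 3.01 and 83.6 CPM with vehicle. The direction of Egr2 in these 2 classes on day 14 was therefore not settled.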

How the results depend on the processing

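The members were picked on the macrophage contrast in these same pools, so its stability under other settings is given as a description only. In macrophages the relative log2 ratio of Nr4a3 kept its direction under 15 alternatives on each day. Over those that changed the cells, gate, depth or scale it ranged from -1.99 to -1.43 on day 1, from -2.03 to -1.79 on day 7 and from -2.23 to -1.80 on day 14, and with 1 sublibrary left out from -1.99 to -1.51, from -2.07 to -1.67 and from -2.06 to -1.84. The number of members below the median of all genes at all 3 days stayed at 9 to 10, and at 10 with 1 day or sublibrary left out (leaving out days was added after the data had been seen). The members called outside macrophages were fewer or more under several settings. In cDC1 1 was called, with 2 under no filter or no ribosomal limit, 0 with no day block and 0 to 1 with 1 day left out. In T cells 1 was called, with 0 under DESeq2, total counts as the scale, no day block or the stricter gate, and 0 to 1 with 1 day left out. In NK cells 0 were called, with 0 to 2 on leaving out 1 day. In B cells 2 were called, with 0 under DESeq2, no day block or the stricter gate, 1 with total counts as the scale, 4 with no ribosomal limit and 1 to 2 with 1 day left out. In endothelial cells 0 were called, with 1 under no filter (Nr4a3, lower) and 0 to 1 with 1 day left out (Nr4a1, higher, without day 1). In proximal tubule cells 1 was called, with 0 under DESeq2, no day block or the stricter gate, 3 with total counts as the scale or no filter and 0 to 4 with 1 day left out. In cDC2 0 were called under each setting. The cause was not tested. The 5 called pairs kept the sign of their fitted fold change under all alternatives, and without the day block none of them passed (adjusted p from 0.197 to 0.999). The ratios of Nr4a3 on single days did not all keep their sign in T cells, NK cells, B cells, cDC1 and cDC2. Over the alternatives the fold change ranged from -1.659 to -1.121 for Nr4a3 and from -0.7775 to -0.6292 for Nr4a1 in B cells. It ranged from -1.266 to -0.6643 for Nr4a3 in T cells, from -1.47 to -0.8283 for Nr4a2 in cDC1 and from -2.154 to -1.908 for Egr1 in proximal tubule cells. Counts of all genes called also moved by more than 1.5 times, from 8 to between 0 and 93 in cDC2, from 51 to between 0 and 134 in cDC1, from 8 to between 0 and 48 in T cells, from 1 to between 0 and 11 in NK cells, from 39 to between 0 and 78 in B cells, from 3 to between 0 and 236 in endothelial cells and from 3 to between 0 and 39 in proximal tubule cells. Depth limits the small classes, where Nr4a3 rested on 15 counts in 2 NK cell pools and on 4 in the classical monocytes of entospletinib day 14, the pool with the lowest median depth (960.0 counts per cell). The day block pairs the vehicle and entospletinib pools of a day.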
